A study of Xenopus laevis with 13 samples.

Results

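The members described here are the gene models of Xenopus laevis splicing factors, found by their names. A gene model was a member when one of its names began with 1 of 7 prefixes, which are snrp and snrnp (proteins of the small nuclear ribonucleoproteins, snRNPs), sf3a and sf3b (parts of the U2 snRNP), prpf (pre-mRNA processing factors), srsf (SR proteins) and hnrnp (heterogeneous nuclear ribonucleoproteins). The rule found 182 of 54110 gene models, which carried 71 distinct gene names. The rule used names and no measured value. RNA of 5 single gastrula embryos of Nieuwkoop-Faber stage 10.5 was sequenced, as was RNA of 5 single eggs, collected 60 minutes post fertilization and still uncleaved (stage 1). A further 3 technical libraries of stage 10.5 were made, and what they were made from is not given in the sources used here. All eggs and embryos came from in vitro fertilization of the eggs of a single female, so the spread between samples is that within 1 clutch. No genotype, transgene or treatment separated the groups. The embryo libraries and the egg libraries were prepared with different strand-specific protocols, so stage and library preparation cannot be told apart in any comparison below.

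The spliceosome removes introns from pre-mRNA. It is assembled on each intron from the U1, U2, U4, U5 and U6 snRNPs. Each holds a small nuclear RNA and its own particular proteins, and those of U1, U2, U4 and U5 also hold a ring of Sm proteins. SR proteins bind exons and mostly promote the recognition of splice sites nearby, and hnRNP proteins coat nascent RNA and often counteract them. The Xenopus egg is transcriptionally silent and carries a store of maternal RNA, and the zygotic genome is switched on at the midblastula transition, before gastrulation. The egg is a single cell and the gastrula holds many, so fewer cells of a type and less RNA per cell cannot be told apart in these whole-embryo libraries. X. laevis is an allotetraploid, in which many genes are kept as a pair of homeologous copies. No sequence is shown, because none of the sources used here holds a transcript or promoter sequence in the genome build of the files.

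Levels are given in FPKM, a read count divided by transcript length and by a library size, here likely scaled between libraries. Such a value relates a gene to the RNA that was sequenced and not to the whole egg or embryo. Differences are on the log2(FPKM + 1) scale, embryo minus egg, with the standard error (SE) and the Benjamini-Hochberg adjusted p of limma over all 19373 gene models that averaged 1 FPKM or more. A model was called higher or lower where the adjusted p was under 0.05. Values between animals are given as the mean ± SD with n = 5 embryos and n = 5 eggs. The reads behind the FPKM values, recovered from their steps, numbered 1367080 to 3818679 in embryos and 1505008 to 2918792 in eggs, and 725979 to 1176240 in the technical libraries. A member had a median of 55.2 to 166 reads per embryo and 69.0 to 88.9 reads per egg. A list of 20 zygotic genes checked the labels, with 14 names found. All 22 of its tested models were higher in embryos, with summed levels of 1173 to 1442 FPKM in embryos and 0 to 1.21 FPKM in eggs. Of its 26 models 20 were at 0 in every egg, and such models could only be called higher. The levels, and not the calls, therefore serve as the check. Follicle cell genes summed to 0 to 8.87 FPKM in embryos and to 0 in eggs, and blood genes were at 0 in all single libraries. Of 11 tested models of maternal genes 5 were lower in embryos and 1 was higher. The 5 models with the most reads took 11.97 to 25.3% of the reads of an embryo, 1.51 to 2.81% of those of eggs 1 to 4 and 34.8% of those of egg 5. Egg 3 stood apart from the other eggs in many members, and results that rest on it are given with and without it.

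Of the 182 members, 165 passed the filter and 17 did not, the highest of these with a mean of 0.985 FPKM. Only 106 members carried their gene name alone. Another 33 carried synonyms, and 43 carried names of several genes. The gene model file named 141 of the 182 as a splicing factor, left 25 without a name and gave 16 the name of another gene. For example, the model listed under sf3b5 was named eef1a1 there, a translation elongation factor, and that listed under prpf4 was named odc1, an enzyme of polyamine synthesis. These 16 models stay in the counts of all members, and counts without them are given beside those. Of the 182 members 26 were shorter than 500 bases, where FPKM is unreliable, and some of these also lacked a splicing factor name there. The members of at least 500 bases with a splicing factor name in the gene model file, 120 of them tested, are called the named models below. In 48 members at least 10% of the exon bases lay inside an exon of another gene model, on the opposite strand in 47 of them. Whether the counting used the strand is not given in the sources used here, so reads of such a pair cannot be told apart.

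More splicing factor models were higher in embryos than lower. Of the 165 tested members 78 were higher (47.3%), against 31.6% of all tested gene models, and 28 were lower (17.0%), against 25.2% of all tested gene models. The median change was 0.64 for the members and 0.12 for all models. With a change of at least 1 log2 unit also required, 66 members were higher and 15 lower (24.8% and 17.5% of all models). In 63 members every embryo lay above every egg, and in 17 every egg lay above every embryo (23.5% and 18.3% of all models). Among the 120 tested named models 53 were higher and 23 lower, with a median change of 0.45. Without egg 3, 84 members were higher (50.6%) and 28 lower (16.9%) of 166, beside 32.2% and 26.1% of all models. The background of all models depended on the scaling between libraries. Its median change was 0.12 as deposited, 0.21 after median-ratio scaling and -0.11 after quantile normalization. After median-ratio scaling 85 members were higher (51.2%) and 26 lower (15.7%), beside 34.1% and 23.2% of all models. After quantile normalization 77 members were higher (46.7%) and 36 lower (21.8%), beside 27.3% and 31.6% of all models.

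**Figure D1:**
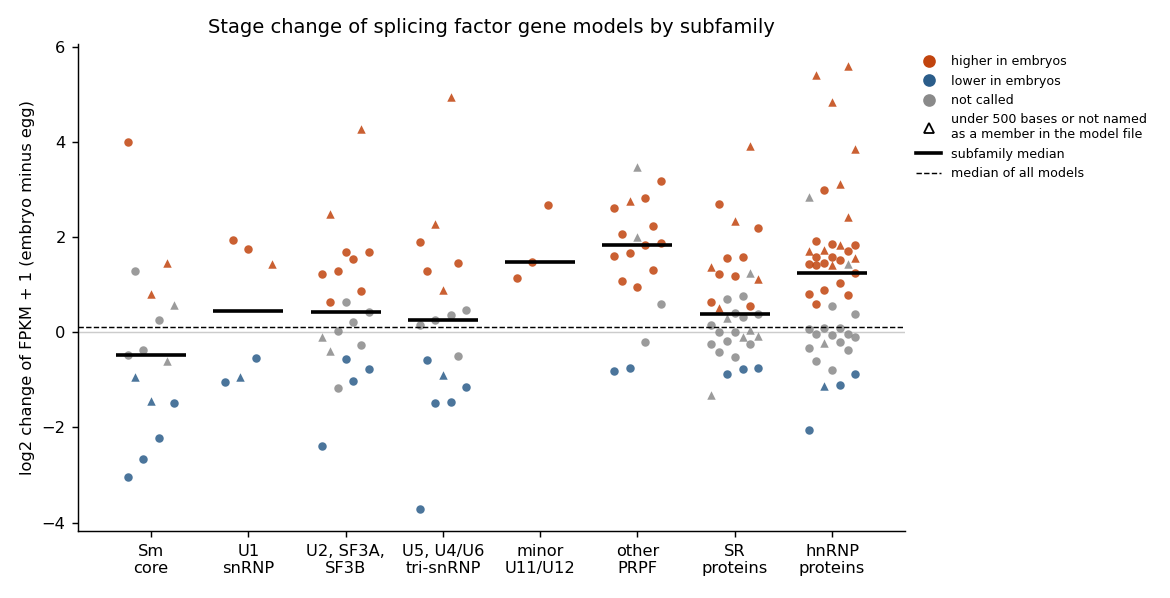
Change of each tested member on the log2(FPKM + 1) scale (embryo minus egg, vertical axis) in 8 subfamilies. Each point is 1 gene model, red where higher in embryos, blue where lower and grey where not called, triangles are models under 500 bases or without a splicing factor name in the gene model file, thick bars are subfamily medians, and the dashed line is the median of all models at 0.12. The Sm core has its median below that line at -0.48, and the hnRNP and other PRPF groups have theirs at 1.24 and 1.83. Over named models alone the medians of these groups are -0.48, 0.58 and 1.64.

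The shares called differed between subfamilies, and those from the values as deposited are set beside 31.6% higher and 25.2% lower of all tested gene models. For all models these shares were 34.1% and 23.2% after median-ratio scaling and 27.3% and 31.6% after quantile normalization. With the technical libraries they were 27.9% and 22.4%. The Sm core was the only one of the 8 with more models lower (6, 40.0%) than higher (3) among its 15 tested models. Its median change was -0.48, but 0.14 with the technical libraries in place of the single embryos, where 5 models were lower and 4 higher. The U1 snRNP (3 higher and 3 lower of 6) and the U5 and U4/U6 tri-snRNP (6 and 6 of 17, 35.3% each) were split evenly, the tri-snRNP into 8 and 5 after median-ratio scaling and 6 and 7 after quantile normalization. The U2 snRNP with SF3A and SF3B had 9 higher (42.9%) and 4 lower (19.0%) of 21, and 10 and 7 after quantile normalization. The other PRPF proteins had 13 higher (68.4%) and 2 lower (10.5%) of 19, and the hnRNP proteins 28 higher (57.1%) and 4 lower (8.16%) of 49. The SR proteins had 13 higher (37.1%) and 3 lower (8.57%) of 35. The shares higher of the tri-snRNP and the SR proteins were near that of all models. All 3 models of the minor spliceosome were higher. Among named models alone the counts were 1 higher and 4 lower of 9 for the Sm core, 2 and 2 of 4 for U1, 7 and 4 of 17 for U2, 3 and 5 of 13 for the tri-snRNP, 12 and 2 of 16 for the other PRPF proteins, 8 and 3 of 24 for the SR proteins and 17 and 3 of 34 for the hnRNP proteins. The median change of the hnRNP proteins was 0.58 over the named models, against 1.24 over all their tested models. Several hnRNP models outside the named ones were at 0 in every egg and could only be called higher. The named Sm count holds 3 snrpd1 models that lie on top of each other, and of the other 6 named Sm models 3 were lower and 3 not called. The difference between subfamilies was not tested, since only their models' own changes were.

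Summed levels weigh the most abundant models most and can differ from the counts of calls. The 9 named Sm models summed to 408, 428, 374, 415 and 532 FPKM in the embryos, against 740.0, 729, 1196, 862 and 716 FPKM in the eggs. Every egg was above every embryo, and the ratio of the means, embryo over egg, was 0.508. Of the means of 431.3 and 848.5 FPKM, the snrpb models made up 38.6 and 47.4 FPKM in embryos and 251 and 225 FPKM in eggs. The fall of the sum thus lies mostly in snrpb. Outside the sum, being under 500 bases, a snrpd3 model was at 299 FPKM in embryos and 114 FPKM in eggs. A snrpd1 model of that kind was at 129 and 348 FPKM. The SR proteins summed to 2773 ± 295 FPKM in embryos and 1668 ± 405 FPKM in eggs. Of these means the srsf2 model that starts at 131599 on scaffold 000071264 made up 765 and 171 FPKM. The hnRNP proteins summed to 1596 ± 44.0 FPKM in embryos and 968 ± 207 FPKM in eggs. The other PRPF proteins summed to 455 ± 63.5 FPKM in embryos and 255 ± 39.5 FPKM in eggs, and the minor spliceosome to 57.5 ± 14.7 FPKM in embryos and 18.03 ± 5.07 FPKM in eggs. None of these 4 sums overlapped between the stages. The U1, U2 and tri-snRNP sums did overlap, with ratios of embryo to egg of 1.07, 1.14 and 0.966. Without the overlapping snrpd1 models the Sm sum was 322 to 405 FPKM in embryos and 626 to 1148 FPKM in eggs, a ratio of 0.457. The Sm core took 5.58 to 8.15% of the summed FPKM of all named models in embryos and 16.5 to 18.3% in eggs. In the technical libraries its sum was 578 to 883 FPKM, which overlapped the eggs, while its share of 6.98 to 9.24% lay below every egg. The SR and hnRNP sums of the technical libraries, 3572 to 3771 and 2105 to 2395 FPKM, lay above those of every single embryo. All named models together summed to 8286 to 9558 FPKM in the technical libraries, 6052 to 6698 FPKM in single embryos and 4258 to 6530 FPKM in eggs. Libraries of the same stage thus differed in these sums.

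**Figure D2:**
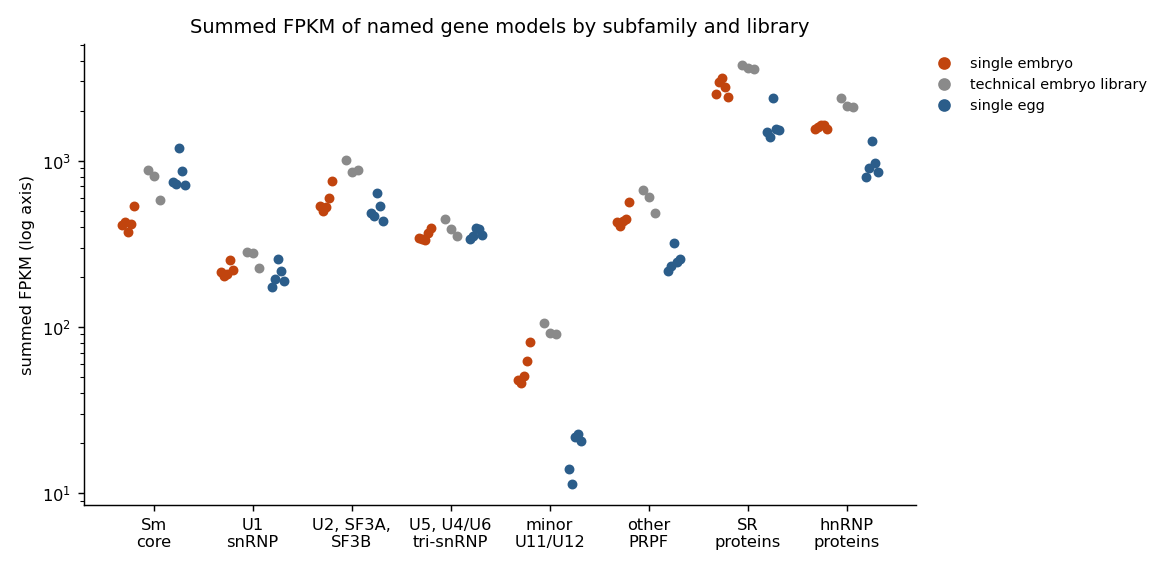
Summed FPKM (log axis) of the named models in each of 8 subfamilies, with 1 point per library for 5 single embryos (red), 3 technical embryo libraries (grey) and 5 single eggs (blue). The Sm core sums of single embryos lie at 374 to 532 FPKM, below all eggs, and the SR, hnRNP, other PRPF and minor spliceosome sums lie above all eggs.

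Sm proteins form the ring that is loaded on the U1, U2, U4 and U5 small nuclear RNAs in the cytoplasm. Among models that overlap no other Sm model, the largest falls were those of snrpb, which encodes the SmB protein, chosen after its values were seen. The copy on scaffold 000080843 (170987 to 173906 in the JGI 7.1 assembly) was at 23.2, 62.2, 45.4, 25.6 and 36.5 FPKM in the embryos, against 200, 184, 450.1, 226 and 195 FPKM in the eggs. Every egg was above every embryo. The change was -2.67 (SE 0.31, limma adjusted p = 2.6e-05). Its second copy, on scaffold 000094404, averaged 47.4 ± 14.5 FPKM in embryos and 225 ± 72.6 FPKM in eggs, a change of -2.22 (SE 0.25, limma adjusted p = 1.8e-05), also without overlap. It shared 12.2% of its exon bases with elmo1 on the opposite strand, at 2.97 FPKM in embryos and 2.58 FPKM in eggs. In eggs these copies were the named models with the highest mean FPKM after srsf2, and in embryos neither was among the 8 highest.

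The other Sm genes had smaller changes or could not be read cleanly. snrpg, which encodes SmG, averaged 7.27 ± 2.16 FPKM in embryos and 21.9 ± 5.12 FPKM in eggs at its named model on scaffold 000014870 (change -1.48, SE 0.22, limma adjusted p = 0.00014). With the technical libraries in place of the single embryos this fall was -0.62 and no longer called (limma adjusted p = 0.072). snrpd3, which encodes SmD3, was at 148 ± 25.0 FPKM in embryos and 124.5 ± 28.8 FPKM in eggs on scaffold 000394729, and did not pass the test (limma adjusted p = 0.26), though it was called higher with the technical libraries (change 1.22, limma adjusted p = 0.0029). A snrpd3 model of 367 bases was higher, at 299 ± 67.9 FPKM in embryos and 114 ± 46.3 FPKM in eggs, without overlap (change 1.46, SE 0.29, limma adjusted p = 0.0012). snrpd2 and snrpe likewise had values of 52.2 and 60.9 FPKM in embryos, against 68.9 and 82.3 FPKM in eggs, with no call. The 3 named models of snrpd1, which encodes SmD1, lay on top of each other on scaffold 000001268, on both strands, with 85.04 to 100% of their exon bases shared. Their averages were 6.88, 36.6 and 33.9 FPKM in embryos, against 38.5, 33.0 and 3.30 FPKM in eggs, so 1 fell (change -3.05, limma adjusted p = 0.0058), 1 was not called and 1 was higher. Since they share their exons, their changes cannot be told apart. The remaining snrpd1 model, of 290 bases, was at 129 ± 38.3 FPKM in embryos and 348 ± 91.7 FPKM in eggs.

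The U1 snRNP recognises the 5′ splice site. Its 70K protein and its A and C proteins went in opposite directions. snrnp70 (U1-70K, which also contacts SR proteins) on scaffold 000402746 was at 68.7, 52.3, 54.5, 72.1 and 72.8 FPKM in the embryos, against 14.9, 21.1, 22.5, 11.6 and 11.8 FPKM in the eggs. No egg reached an embryo. The change was 1.94 (SE 0.22, limma adjusted p = 1.8e-05). That model also carried the names rpl37a, rps25 and fus, though the gene model file named it snrnp70. It was chosen after its values were seen. On scaffold 000056777, where its name stands alone, snrnp70 averaged 43.5 ± 6.54 FPKM in embryos and 13.2 ± 6.48 FPKM in eggs (change 1.75, SE 0.27, limma adjusted p = 0.00020). Both copies shared 69.7% and 68.5% of their exon bases with opposite-strand models, and these averaged 6.59 and 2.05 FPKM in embryos and 1.98 and 0.224 FPKM in eggs. snrpa, the A protein of U1, averaged 95.04 ± 8.14 FPKM in embryos and 139 ± 16.7 FPKM in eggs (change -0.54, SE 0.13, limma adjusted p = 0.0050). With the technical libraries its change was -0.08 (limma adjusted p = 0.72). snrpc, its C protein, averaged 17.2 ± 4.05 FPKM in embryos and 37.5 ± 12.8 FPKM in eggs (change -1.04, SE 0.26, limma adjusted p = 0.0046). It shared 28.9% of its exon bases with an opposite-strand model named c6orf106 and spdef. That model was at 32.3 FPKM in embryos and 35.2 FPKM in eggs, so reads of the pair cannot be told apart.

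The U2 snRNP binds the branch point, and SF3A and SF3B are its protein complexes. sf3b1, the large scaffold subunit of SF3B, was higher in embryos at both copies. On scaffold 000026364 it was at 62.3, 54.3, 57.4, 71.0 and 87.6 FPKM in the embryos, against 17.0, 18.03, 25.7, 20.1 and 17.95 FPKM in the eggs. The groups did not overlap, and the change was 1.70 (SE 0.18, limma adjusted p = 1.1e-05). Its copy on scaffold 000120240 had lower levels, 10.9 ± 3.02 FPKM in embryos and 3.13 ± 1.22 FPKM in eggs, with a like change of 1.54 (SE 0.25, limma adjusted p = 0.00031). sf3b2, which stands beside sf3b1 in the complex, was higher at both copies as well (changes 1.69 and 1.23). sf3a3 on scaffold 000173270 was higher in 2 opposite-strand models of at least 500 bases, with changes of 0.87 and 1.30. These share most of their exon bases, so the rise is counted there more than once. A copy on scaffold 000030711, which overlaps nothing, averaged 28.7 ± 0.78 FPKM in embryos and 25.0 ± 5.15 FPKM in eggs and was not called (limma adjusted p = 0.26).

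Copies of sf3b4 and sf3b3 were lower. sf3b4, which contacts the pre-mRNA near the branch point, was at 8.80, 4.49, 8.91, 10.1 and 5.90 FPKM in the embryos, against 27.5, 36.4, 76.8, 52.9 and 34.4 FPKM in the eggs at its copy on scaffold 000115163. Every egg was above every embryo, and the change was -2.38 (SE 0.29, limma adjusted p = 4.0e-05). Another copy, on scaffold 000131854, was at 0.938 to 1.85 FPKM in embryos and at 3.40, 6.76, 0, 9.61 and 6.56 FPKM in eggs. It was not called with all eggs (change -1.18, limma adjusted p = 0.086) but was called without egg 3, in which it was at 0 (change -1.75, limma adjusted p = 0.00038). sf3b3 fell at 1 copy, to 20.1 ± 2.19 FPKM in embryos, against 42.2 ± 5.35 FPKM in eggs (change -1.03, SE 0.15, limma adjusted p = 0.00012). The other sf3b3 copy was not called (change -0.26, limma adjusted p = 0.37). sf3b14, the branch point-binding subunit of SF3B, was higher at its named model, at 44.5 ± 6.34 FPKM in embryos and 29.3 ± 10.96 FPKM in eggs (change 0.64, SE 0.22, limma adjusted p = 0.028), with overlap between the stages. That model shared 26.1% of its exon bases with an opposite-strand model. The U2-specific proteins snrpa1 and snrpb2 each had 1 copy that was lower (changes -0.76 and -0.57) and 1 that was not called (0.43 and 0.64). Both falls turned to positive values with the technical libraries, 0.09 and 0.23, neither of them called. The fall of snrpb2 was also lost without embryo 1 or embryo 2 (limma adjusted p = 0.056 and 0.0502), and the uncalled copies of snrpa1 and snrpb2 were higher without egg 3 (limma adjusted p = 0.026 and 0.028).

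The U4/U6.U5 tri-snRNP brings the catalytic RNAs to the spliceosome. The member with the largest fall of all was snrnp40, a WD-repeat protein of the U5 snRNP. At its copy on scaffold 000013204 (796742 to 806359) it was at 1.76, 0.899, 2.86, 2.19 and 2.05 FPKM in the embryos, against 39.3, 40.2, 40.4, 33.8 and 31.9 FPKM in the eggs. The lowest egg was more than 10 times the highest embryo, and the change was -3.72 (SE 0.20, limma adjusted p = 6.1e-08). On scaffold 000098463 it fell less, to 46.8 ± 6.26 FPKM in embryos, against 105 ± 10.1 FPKM in eggs (change -1.15, SE 0.14, limma adjusted p = 3.9e-05). eftud2, the GTPase of the U5 snRNP, which the files list under an older name with a member prefix, averaged 8.98 ± 2.13 FPKM in embryos and 27.0 ± 6.53 FPKM in eggs (change -1.48, SE 0.21, limma adjusted p = 0.00013). Its exons overlap those of higd1b on the opposite strand by 88.2%, and higd1b was at 0 in embryos and averaged 0.236 FPKM in eggs. A second eftud2 model, listed under its current name, was at 11.3 ± 1.18 FPKM in embryos and 18.4 ± 6.90 FPKM in eggs and was not called (change -0.56, limma adjusted p = 0.11). snrnp27, a tri-snRNP protein, was also lower, at 13.7 ± 2.14 FPKM in embryos and 40.2 ± 10.9 FPKM in eggs (change -1.47, SE 0.20, limma adjusted p = 7.2e-05).

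Of the U4/U6 proteins prpf3 and prpf31 were higher, and prpf4 was not called. prpf3 was at 57.3, 61.8, 54.8, 76.8 and 74.4 FPKM in the embryos, against 22.9, 13.4, 15.2, 16.4 and 16.1 FPKM in the eggs (change 1.90, SE 0.17, limma adjusted p = 4.3e-06), with no overlap. prpf31 was higher at both copies, by 1.46 and 1.29. Not all U5 proteins passed the test. prpf8, the largest protein at the catalytic centre, averaged 46.5 ± 7.64 FPKM in embryos and 35.7 ± 4.34 FPKM in eggs and was not called (change 0.37, SE 0.16, limma adjusted p = 0.065). It was called after median-ratio scaling (limma adjusted p = 0.020) and without embryo 5 (limma adjusted p = 0.046). A further 2 prpf8 models on scaffold 000112554 were listed at 0 to 1.22 FPKM in embryos and 0 to 0.588 FPKM in eggs and were not tested. snrnp200, the helicase that unwinds U4 from U6, was at 5.79 and 5.53 FPKM in embryos and 5.05 and 3.82 FPKM in eggs at its copies, neither called. prpf6, which bridges U5 and U4/U6, was at 14.3 ± 4.34 FPKM in embryos and 21.7 ± 4.90 FPKM in eggs at 1 copy, which was only just called lower (change -0.59, limma adjusted p = 0.0499), and its other copy was not called (0.26).

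The minor spliceosome removes a rare class of introns with U11 and U12 snRNPs. snrnp25, a U11/U12 protein, was at 16.7, 17.9, 15.4, 20.4 and 29.6 FPKM in the embryos, against 1.64, 3.63, 0.526, 2.21 and 4.58 FPKM in the eggs. The groups were far apart, with a change of 2.68 (SE 0.34, limma adjusted p = 4.5e-05). It shares 62.5% of its exon bases with gsg1l on the opposite strand, which was at 0 in embryos and averaged 0.0948 FPKM in eggs. snrnp48 was at 18.8 ± 3.57 FPKM in embryos and 6.38 ± 2.73 FPKM in eggs (change 1.47, SE 0.24, limma adjusted p = 0.00032), without overlap. snrnp35, the U11 counterpart of U1-70K, was at 13.2 to 29.2 FPKM in embryos and 1.80 to 17.2 FPKM in eggs, which overlapped. Its call (change 1.13, SE 0.43, limma adjusted p = 0.040) was lost without embryo 1, 3, 4 or 5 and without egg 1, 2 or 4, with limma adjusted p of 0.052 to 0.098.

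The other PRPF proteins include kinases, activators and adaptors of the spliceosome, and 12 of their 16 named models were higher in embryos. prpf4b, a kinase that acts on the tri-snRNP, was at 41.8, 34.7, 38.4, 44.6 and 74.0 FPKM in the embryos, against 6.08, 3.25, 2.21, 4.80 and 4.77 FPKM in the eggs on scaffold 000067052. No egg came near an embryo, and the change was 3.19 (SE 0.26, limma adjusted p = 1.8e-06). Its copy on scaffold 000274508 averaged 23.5 ± 12.6 FPKM in embryos and 3.88 ± 1.42 FPKM in eggs (change 2.24, SE 0.33, limma adjusted p = 0.00015). prpf38b averaged 44.5 ± 6.11 and 56.2 ± 7.62 FPKM in embryos at its copies, against 6.66 ± 2.51 and 14.9 ± 4.50 FPKM in eggs (changes 2.61 and 1.89). prpf39.1, a U1-associated protein, was higher at both copies, by 2.84 and 1.83. prpf39.2, listed as a separate gene, was at 6.68 ± 1.17 FPKM in embryos and 7.82 ± 1.34 FPKM in eggs and was not called.

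prpf19, the ubiquitin ligase at the core of the Prp19 complex, was the exception. The copy on scaffold 000011978 was at 61.5, 48.4, 94.0, 54.4 and 41.0 FPKM in the embryos, against 86.3, 88.5, 137, 101 and 106 FPKM in the eggs. Embryo 3 lay above 2 eggs. The change was -0.82 (SE 0.22, limma adjusted p = 0.0081). On scaffold 000064233 it fell to 27.3 ± 5.15 FPKM in embryos, against 46.0 ± 6.32 FPKM in eggs (change -0.74, SE 0.17, limma adjusted p = 0.0036), without overlap.

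**Figure D3:**
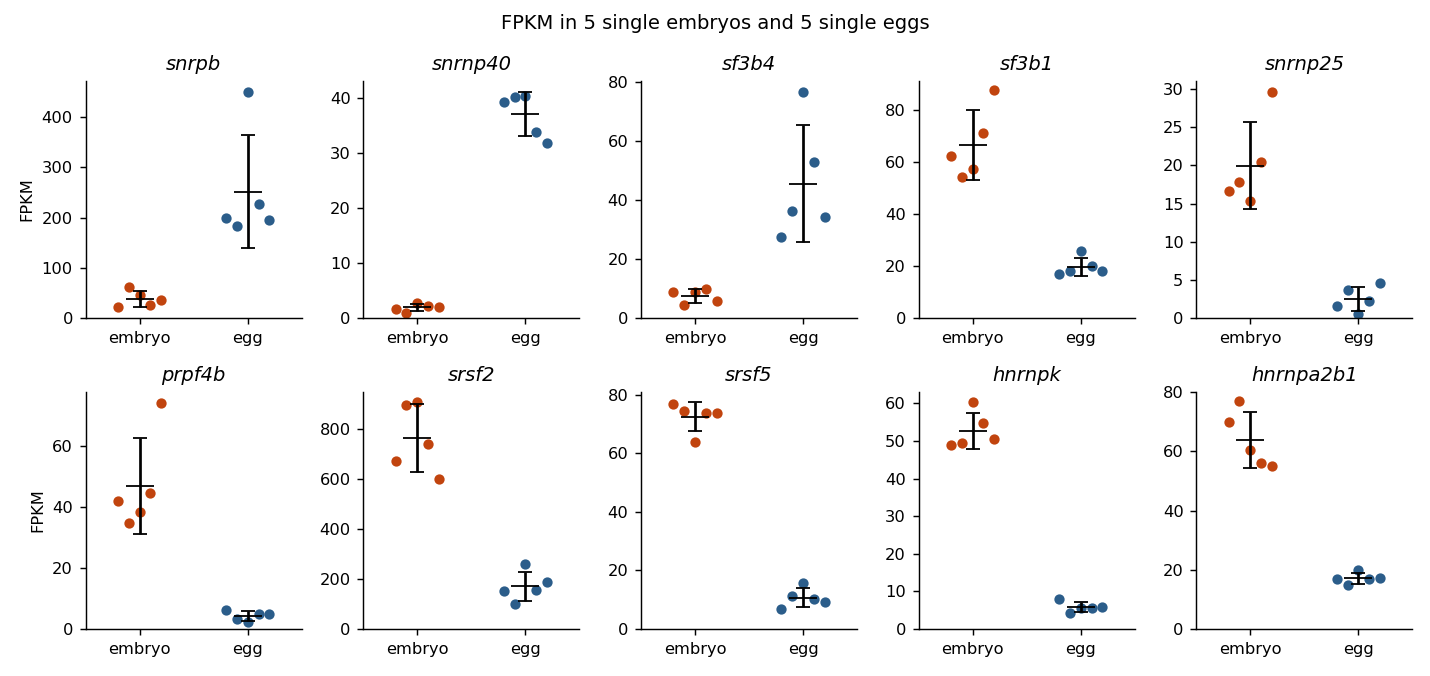
FPKM (vertical axes, from 0) of 10 named models in 5 single embryos (left, red) and 5 single eggs (right, blue), with black bars for the mean ± SD. In snrpb, snrnp40 and sf3b4 every egg is above every embryo, and in the other 7 panels every embryo is above every egg. Where a gene has several copies the panel shows 1 of them, whose values are given in the text.

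SR proteins had the largest share of the 8 subfamilies in summed FPKM, 37.2 to 46.8% of the named models' sum in embryos and 32.3 to 36.5% in eggs. The 6 named models with the highest mean in embryos were all SR genes. At the top stood srsf2 (SC35) on scaffold 000071264 (131599 to 134727). It was at 672, 898, 911, 744 and 602 FPKM in the embryos, against 154, 98.8, 259.9, 157 and 187 FPKM in the eggs. Each embryo was more than 2 times the highest egg, and the change was 2.20 (SE 0.24, limma adjusted p = 1.5e-05). The copy on scaffold 000106323 (671649 to 674489) was at 365 ± 57.0 FPKM in embryos and 274 ± 47.1 FPKM in eggs and just missed the threshold (change 0.41, limma adjusted p = 0.0503). It was called without egg 3, embryo 1 or embryo 5 (limma adjusted p = 0.021, 0.046 and 0.035) and after median-ratio scaling (0.016). Next to each of these copies lay shorter srsf2 models on both strands that share exons with each other. Of these, one of 563 bases was lower (56.8 ± 7.84 FPKM in embryos, 99.0 ± 24.9 FPKM in eggs) and one of 165 bases was higher (1006 ± 154 FPKM in embryos, 509 ± 247 FPKM in eggs). The call of the model of 165 bases was lost under quantile normalization (limma adjusted p = 0.15) and with the technical libraries (limma adjusted p = 0.156). That of the model of 563 bases was also lost with the technical libraries (change -0.59, limma adjusted p = 0.0699).

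srsf5 and srsf7 were higher at both copies. srsf5 on scaffold 000203041 was at 76.8, 74.5, 63.8, 73.7 and 73.8 FPKM in the embryos, against 6.88, 11.4, 15.8, 10.1 and 9.18 FPKM in the eggs. The groups did not overlap, and the change was 2.70 (SE 0.19, limma adjusted p = 6.4e-07). On scaffold 000098382 it averaged 151 ± 22.2 FPKM in embryos and 50.3 ± 12.4 FPKM in eggs (change 1.59). srsf7 averaged 257 ± 53.4 and 41.9 ± 7.24 FPKM in embryos, against 114 ± 35.0 and 13.6 ± 3.08 FPKM in eggs (changes 1.18 and 1.56). The less abundant srsf7 copy shared 14.6% of its exon bases with gemin6 on the opposite strand, which was itself higher (31.7 FPKM in embryos, 12.4 FPKM in eggs). One copy of srsf6 was higher (change 1.22) and one was not called (-0.24).

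srsf1 and srsf3, the best known SR proteins beside srsf2, did not pass the test in their named models. srsf1 (SF2/ASF) on scaffold 000008834 was at 150, 154, 174, 104 and 97.2 FPKM in the embryos, against 71.7, 110.1, 278, 106 and 102 FPKM in the eggs (change 0.15, limma adjusted p = 0.71). Egg 3 was the highest of all 10. The other srsf1 copy averaged 59.6 ± 26.7 FPKM in embryos and 77.3 ± 34.7 FPKM in eggs (limma adjusted p = 0.33). srsf3 averaged 217 ± 30.6 and 202 ± 55.5 FPKM in embryos, against 176 ± 49.3 and 132 ± 75.6 FPKM in eggs. The srsf3 copy on scaffold 000076824 was called higher without egg 3 (change 0.99, limma adjusted p = 0.0024), in which it stood at 266 FPKM while the other eggs were at 82.7 to 106 FPKM. An srsf3 model of 2776 bases on scaffold 000272406, without a name in the gene model file, was higher. It averaged 11.1 ± 2.53 FPKM in embryos and 1.57 ± 1.39 FPKM in eggs, without overlap (change 2.345, SE 0.31, limma adjusted p = 6.2e-05). Another srsf3 model, of 780 bases, averaged 0.322 FPKM in embryos and 0 in eggs and was not tested. srsf4 was lower at 1 of its named models (change -0.88), as was srsf12 (-0.76).

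The hnRNP proteins had the most members. hnrnpk, an RNA-binding protein with KH domains, rose at both named copies. On scaffold 000013576 (200526 to 214452) it was at 49.0, 49.4, 60.3, 54.7 and 50.4 FPKM in the embryos, against 8.03, 4.36, 5.47, 5.50 and 5.72 FPKM in the eggs. The groups were far apart, and the change of 2.996 (SE 0.17, limma adjusted p = 7.1e-08) was the highest among named hnRNP models. On scaffold 000086871 it averaged 88.2 ± 7.65 FPKM in embryos and 30.8 ± 13.9 FPKM in eggs (change 1.58). Opposite-strand hnrnpk models on scaffold 000019916, of 459 and 714 bases, were at 0 in every egg and averaged 49.7 ± 30.4 and 11.8 ± 8.19 FPKM in embryos. With a floor of 3 reads per egg library they were at least 11.6-fold and 5.49-fold higher, if the listed values are taken as read counts. They passed the filter through the embryos alone and could only be called higher. They share 81.05% and 52.1% of their exon bases with each other, so their rises cannot be told apart. Neither is read as support.

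Of the A/B group, the abundant nuclear hnRNPs that package nascent RNA, hnrnpa1 was higher at both copies. It averaged 35.8 ± 12.3 and 77.9 ± 10.99 FPKM in embryos, against 12.9 ± 5.73 and 45.5 ± 11.97 FPKM in eggs (changes 1.44 and 0.79). The more abundant hnrnpa1 copy shared 58.9% of its exon bases with an opposite-strand model named cbx5 and nfe2, which was itself higher (8.02 FPKM in embryos, 0.803 FPKM in eggs). Neither copy of hnrnpa3 was called (changes -0.61 and -0.37, limma adjusted p = 0.074 and 0.22). The hnrnpa0 model of 740 bases was not called either (change 0.56, limma adjusted p = 0.13). hnrnpab was called higher at 1 copy (133 ± 19.1 FPKM in embryos, 81.7 ± 36.5 FPKM in eggs, change 0.80, limma adjusted p = 0.025), a call that was lost without embryo 2, egg 1 or egg 5 (limma adjusted p = 0.0595, 0.055 and 0.061). hnrnpd (AUF1), which binds AU-rich elements, averaged 56.0 ± 13.9 FPKM in embryos and 29.3 ± 4.69 FPKM in eggs (change 0.89, SE 0.19, limma adjusted p = 0.0020). Its relative hnrnpdl was higher at both copies, at 93.9 ± 17.6 and 88.7 ± 18.9 FPKM in embryos, against 25.3 ± 4.84 and 26.4 ± 5.58 FPKM in eggs (changes 1.85 and 1.7).

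hnrnph1, which binds G-rich elements, was also higher at both copies. On scaffold 000140825 it was at 120.3, 125, 123, 131 and 124 FPKM in the embryos, against 31.5, 45.3, 67.5, 34.2 and 35.1 FPKM in the eggs (change 1.58, SE 0.20, limma adjusted p = 4.6e-05). The embryos were even, with an SD of 3.8 FPKM. hnrnpu, a nuclear scaffold protein, was higher at both copies (changes 1.93 and 1.43), as was hnrnpr (1.52 and 0.60). hnrnpc, which binds uridine tracts, was at 90.5 ± 16.1 and 62.2 ± 4.17 FPKM in embryos, against 105 ± 20.4 and 65.1 ± 16.2 FPKM in eggs, with neither copy called. The named hnRNP models that were lower were one of hnrnpul2 (8.51 ± 1.55 FPKM in embryos, 19.3 ± 3.17 FPKM in eggs, change -1.10), one of hnrnph3 and one of hnrnpm. The hnrnpm model was listed at 0 in every embryo, and at 2.00, 1.08, 0, 26.1 and 6.29 FPKM in the eggs. It lies wholly inside exons of other models, as 40.3% of the hnrnph3 model does. Within the same hnrnph3 region on scaffold 000203187, fragments of 235 and 159 bases averaged 33.8 ± 18.7 and 83.8 ± 68.5 FPKM in embryos and were at or under 0.0372 FPKM in every egg. They were at least 2.36-fold and 3.70-fold higher at the floor of 3 reads per egg library, and all of their bases lie in exons of the longer models. These fragments too passed the filter through the embryos alone and are not read as support.

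Some genes had an extra, unnamed gene model on the same strand, within 5000 bases downstream of the named model. The splicing factors had 9 such models, 7 of them tested, and 6 of the 9 were at 0 in every egg. Over all genes there were 235 such models, and 46.8% were at 0 in every egg. A model at 0 in eggs passed the filter through the embryos alone and could only be higher there, so calls among such models are not read as support. The model of 916 bases that lies 1593 bases downstream of srsf1 was at 30.3, 26.7, 26.1, 28.2 and 23.9 FPKM in the embryos, against 1.67, 0, 0, 2.39 and 1.31 FPKM in the eggs (change 3.93, SE 0.34, limma adjusted p = 3.0e-06), while the srsf1 model itself was not called. At hnrnpa2b1 on scaffold 000099185 the models differed likewise. Its downstream model of 746 bases was at 17.0, 15.6, 8.24, 8.62 and 23.7 FPKM in embryos and 0 in every egg, at least 7.21-fold higher at a floor of 3 reads per egg library. The gene model itself averaged 28.7 ± 4.14 FPKM in embryos and 30.8 ± 11.9 FPKM in eggs. The downstream model of prpf4b, of 1658 bases, was at 4.36 to 8.06 FPKM in embryos and 0 in every egg, at least 7.82-fold higher, beside a gene model that was higher too. The downstream model of srsf4 differed from these, with 12.7 ± 4.43 FPKM in embryos and 14.0 ± 5.72 FPKM in eggs. Whether such models belong to the transcript of the gene upstream was not tested.

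**Figure D4:**
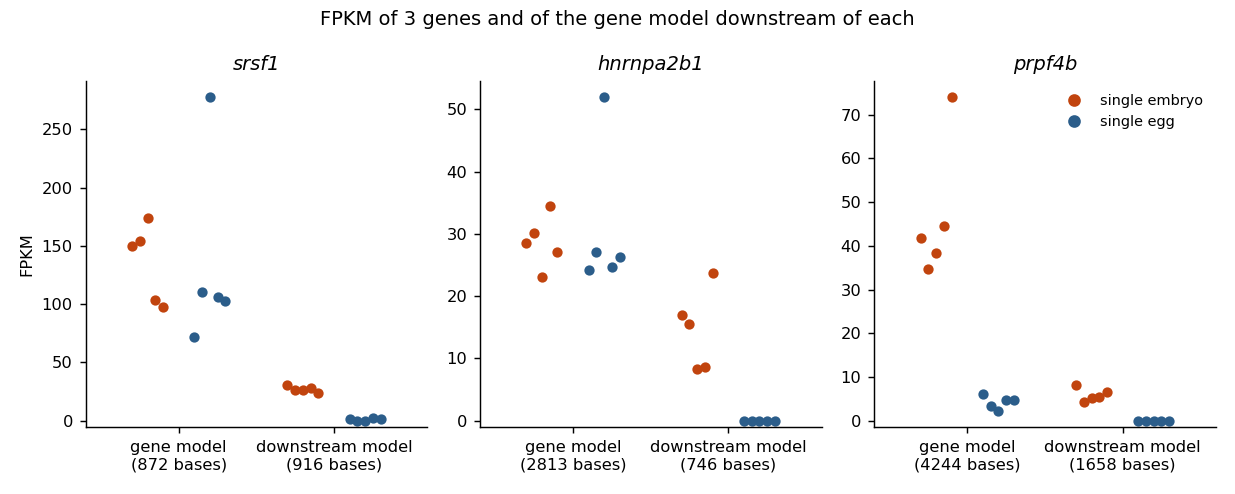
FPKM (vertical axes) of the gene models of srsf1, hnrnpa2b1 and prpf4b and of the unnamed model downstream of each, in 5 single embryos (red) and 5 single eggs (blue). At srsf1 and hnrnpa2b1 the gene models of embryos and eggs overlap while the downstream models do not, and those of hnrnpa2b1 and prpf4b are at 0 in all eggs.

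Both copies of a gene could be compared for 37 splicing factor names, taken as 2 named models of at least 500 bases on 2 scaffolds, a rule chosen after the data were seen. The files do not say which models are homeologs. By the calls, both were higher in 15 pairs and both lower in 3, 1 alone was higher in 6 and 1 alone lower in 6, neither was called in 7, and in 0 pairs did the calls oppose each other. Like counts over all pairs are not given here, so these are not read as particular to splicing factors. The stage change itself differed between copies in 15 of the 37 pairs, which is 40.5% beside 36.3% of all 4061 pairs of the same kind. The largest difference was that of snrnp40, at -2.57 (SE 0.23, limma adjusted p = 1.2e-05 over all pairs), where both copies fell. In embryos the copy on scaffold 000013204 was 4.04 log2 units below the other, against 1.47 units below it in eggs.

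In hnrnpa2b1 the order of the copies changed with the stage. The copy on scaffold 000178713 was at 70.0, 77.0, 60.4, 56.1 and 55.1 FPKM in the embryos, against 16.7, 14.9, 20.1, 16.8 and 17.2 FPKM in the eggs. The other copy, whose values are given above, was the lower one in embryos and the higher one in eggs (difference in change -1.88, SE 0.23, limma adjusted p = 1.0e-04). hnrnpk, srsf5, prpf38b, prpf39.1 and hnrnpr were higher at both copies but by unequal amounts, with differences in change of 0.72 to 1.42 in size. In hnrnpl 1 copy rose (33.9 ± 2.21 FPKM in embryos, 14.1 ± 3.68 FPKM in eggs) and the more abundant one was not called (69.2 ± 7.22 FPKM in embryos, 65.3 ± 13.7 FPKM in eggs), a difference of 1.14 (limma adjusted p = 0.0042). The copies of snrpa1, snrpb2, sf3b3, srsf9, hnrnpab, hnrnpul2 and prpf6 also differed. The hnrnpul2 copy on scaffold 000002589, at 3.57 FPKM in embryos and 3.97 FPKM in eggs, shared 19.8% of its exon bases with ttc9c. That opposite-strand model was at 23.4 FPKM in embryos and 55.7 FPKM in eggs. The calls for srsf9, hnrnpr and prpf6 were lost on leaving out single libraries, with limma adjusted p up to 0.055, 0.064 and 0.089, and the number of pairs called was 12 to 17. Copies of sf3b1, prpf31, prpf19, hnrnpdl and hnrnpc had differences in change of 0.08 to 0.17 in size, with limma adjusted p of 0.498 to 0.80.

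**Figure D5:**
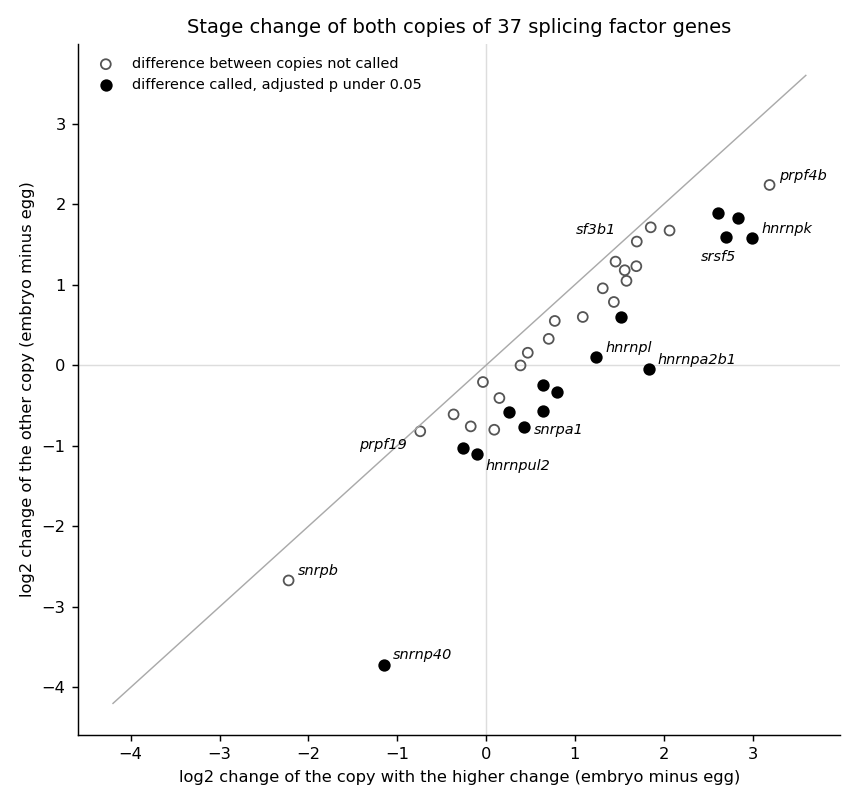
Change on the log2(FPKM + 1) scale (embryo minus egg) of the copy with the higher change (horizontal axis) and of the other copy (vertical axis) for 37 splicing factor genes, with filled points where the change differed between copies at an adjusted p under 0.05. The grey line marks equal change. snrnp40 and hnrnpa2b1 lie farthest from the line, with differences in change of 2.57 and 1.88.

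The median coefficient of variation (CV) between single embryos was 21.3% over 151 members, beside 25.5% over 15804 models of at least 1 FPKM, and between single eggs it was 28.0% over 134 members, beside 29.8% over 12919 models. With a minimum of 5 FPKM the medians were 19.3% beside 22.6% in embryos and 25.8% beside 25.3% in eggs, so the order turned in eggs. Between the 3 technical libraries, which held fewer reads, the median CV was 17.9% over 151 members of at least 1 FPKM, beside 24.8% over 15525 models. In eggs the spread leaned on egg 3, without which the median CV was 21.7%, beside 25.85% over all models. In embryos it leaned on embryo 5 and embryo 3, without which it was 17.0% and 18.5%, beside 21.35% and 22.9% over all models. The spread of all models thus fell along with that of the members. Across members the Pearson correlation of log2 levels was 0.775 to 0.941 between embryos and 0.804 to 0.895 between eggs, and 0.528 to 0.701 between an embryo and an egg. These correlations are across genes, which are not independent replicates, and share library depth.

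Splicing genes outside the member prefixes were taken from 9 lists of 138 names, of which 108 were found, with 155 tested models. There 63 were higher (40.6%) and 31 lower (20%), beside 31.6% and 25.2% of all models, with a median change of 0.63. In the Prp19 complex list 13 of 20 models were higher (65.0%) and 3 lower (15.0%). snw1 (SKIP), which joins the complex during activation, averaged 65.7 ± 15.5 FPKM in embryos and 10.4 ± 2.62 FPKM in eggs, while plrg1, a core subunit, averaged 1.04 ± 0.90 FPKM in embryos and 15.8 ± 2.86 FPKM in eggs. Among 22 models of spliceosomal helicases and step factors 10 were higher (45.5%) and 1 lower (4.55%). Among 18 of SR-related proteins and SR kinases 11 were higher (61.1%) and 3 lower (16.7%). Of clk2, a kinase that phosphorylates SR proteins, 1 model was higher (59.8 ± 1.76 FPKM in embryos, 21.0 ± 3.52 FPKM in eggs). Its model on scaffold 000036141 was not called (8.23 ± 1.55 FPKM in embryos, 6.52 ± 0.76 FPKM in eggs, change 0.29, limma adjusted p = 0.18).

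The remaining lists differed among themselves. In the list of U2AF and branch point factors 6 of 11 models were lower (54.5%) and 3 higher (27.3%). phf5a, a small subunit of SF3B, fell to 17.1 ± 4.38 FPKM in embryos, against 61.1 ± 15.2 FPKM in eggs, and u2af1, which reads the 3′ splice site, fell to 17.2 ± 7.98 FPKM in embryos, against 56.8 ± 28.9 FPKM in eggs. u2surp, a U2-associated SR-like protein, was higher at both models (changes 2.67 and 2.1). The list of Lsm proteins had 4 higher (23.5%) and 6 lower (35.3%) of 17. Some Lsm proteins form rings that resemble the Sm ring, but the list was not limited to these. It also holds lsm14a, called higher at models with changes of 0.51 and 2.68 and not called at another (0.27), and lsm14b, which was lower (-1.04). The snRNP assembly list had 7 higher (38.9%) and 6 lower (33.3%) of 18. wdr77, part of the methylosome that modifies Sm proteins, averaged 18.02 ± 2.23 FPKM in embryos and 88.5 ± 14.2 FPKM in eggs (change -2.23, limma adjusted p = 6.0e-07). snupn, the snRNP import adaptor, averaged 8.59 ± 0.85 FPKM in embryos and 36.5 ± 6.70 FPKM in eggs, and phax, the small nuclear RNA export adaptor, averaged 19.2 ± 6.05 FPKM in embryos and 5.57 ± 1.56 FPKM in eggs. The hnRNP-like and alternative splicing regulators had 10 higher (45.5%) and 4 lower (18.2%) of 22. The tri-snRNP proteins without a member prefix had 3 higher (18.8%) and 1 lower (6.25%) of 16, and the exon junction complex 2 higher (18.2%) and 1 lower (9.09%) of 11.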

How the data were processed

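The authors mapped 42-base single-end reads of ribosomal RNA-depleted RNA to the JGI 7.1 assembly with gmap, allowing 1 mismatch, and deposited FPKM values per gene model from Cufflinks 2.1.1, in the layout of Cuffdiff. Scaling between libraries is likely, since median-ratio factors were 0.963 to 1.07. The 3 replicate columns named for neither stage were taken as the technical libraries. A further 32 per-sample columns were not used. Values were tested as log2(FPKM + 1) with limma 3.58.1 in R 4.3.3, 5 embryos against 5 eggs, for the 19373 models averaging 1 FPKM or more, with a trended prior. P-values measure only the spread between animals of 1 female. Copies were compared by testing the difference of their log2 values. Reads were recovered from the FPKM steps, where 88.4 to 91.9% of low values were whole within 0.1 of a read. In simulated data 100 models were changed by 1 log2 unit and 100 by 2. Of these 24% and 75% were called, with 8 false calls among 19373 models. Far more models were called in the real data, so these shares do not give the sensitivity of the real fit.

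The members and gene lists were chosen with earlier results of these data known. Named genes, among models whose name stands alone, are the 2 highest per subfamily, up to 3 rises and 3 falls without overlap at a mean of at least 10 FPKM, all models of 12 listed genes and the 5 pairs with the smallest adjusted p. Others, among them snrpb, srsf7, the downstream models and the other splicing lists' genes, were named after their values were seen. Alternatives were other filters, pseudocounts, scalings, array weights, a replicate block, the technical libraries, and each library left out. Restricting to named models or to little exon overlap, leaving out overlapping snrpd1 models, and pairing by the gene model file, were added after seeing the data.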

Additional observations from a re-analysis of the deposited data

Results flagged for a closer look

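Groups of 5 single animals were searched for 1 value far from the other 4 by Dixon's ratio (critical value 0.71). Of 178 groups 19 had such a value, where chance gives about 1 in 20.

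Egg 3 accounted for 9 of them, all high. In egg 3 snrpb was at 450.1 and 351 FPKM at its copies, against 184 to 226 and 167 to 214 FPKM in the other eggs. The srsf1 copy on scaffold 000027891 was at 139 FPKM there, srsf3 at 266 FPKM on scaffold 000076824 and at 3.99 FPKM on scaffold 000272406, srsf7 at 176 FPKM and hnrnpa2b1 on scaffold 000099185 at 51.96 FPKM. The summed FPKM of all named models was 6530.0 in egg 3, against 4258 to 4790.0 in the other eggs, and that of the SR proteins was 2382, against 1385 to 1556.

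Embryo 5 was high in sf3a3 (68.9 FPKM, model starting at 324049), snrpb2 (127 FPKM on scaffold 000111824), prpf4b (74.0 FPKM) and the summed other PRPF proteins (566 FPKM, against 404 to 445 in the other embryos). Embryo 3 was low in srsf5 (63.8 FPKM, against 73.7 to 76.8). Egg 4 was high in snrnp48 (11.1 FPKM, against 4.01 to 5.83), and egg 2 in an unnamed srsf2 model (6.19 FPKM). The remaining 3 were single values in models otherwise at 0, namely 0.0372 FPKM of an hnrnph3 fragment in egg 4, 0.588 FPKM of a prpf8 model in egg 4 and 0.422 FPKM of a prpf8 model in embryo 2.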

How the results depend on the processing

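Leaving out 1 library at a time gave 76 to 84 members higher and 25 to 30 lower. The shares of all models were then 28.5 to 32.2% higher and 23.0 to 26.1% lower. The same runs gave 12 to 17 pairs by the gene model file and 6 to 8 pairs by names alone. The median CV of the members was 17.0 to 23.0% in embryos and 21.7 to 28.7% in eggs. Over all models it was 21.35 to 27.23% in embryos and 25.85 to 30.9% in eggs. By names alone 9 of 19 pairs were called (47.4%, beside 33.5% of all 2528 such pairs). Of these 19 pairs 3 lay on the same scaffold, and some, such as those of hnrnpa2b1 and srsf1, hold a downstream model. They are therefore not all 2 copies of a gene, unlike the rule by the gene model file, where 15 of 37 were called. With only names that stand alone 42 members were higher (46.2%) and 18 lower (19.8%), beside 31.6% and 25.2% of all models. Among named models 1 Sm, 3 tri-snRNP, 8 SR and 17 hnRNP models were higher. Quantile normalization gave 7 lower models in the U2 group (33.3%) and 7 in the hnRNP group (14.3%), beside 31.6% of all models. The technical libraries in place of single embryos gave 2 lower U2 models (9.52%), 1 lower SR model (2.86%) and 1 lower hnRNP model (2.04%), beside 22.4% of all models. They turned snrpa1 (0.089) and snrpb2 (0.231) positive. Same-numbered embryos and eggs did not deviate together (r from -0.0166 to 0.0742), so the numbers do not pair the samples. With a replicate block 80 members were higher (48.5%) and 28 lower (17.0%), beside 30.9% and 24.1% of all models. The causes were not tested.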
